A study of Mus musculus with 23 samples.

Results

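The genes that encode the subunits of the glutamate and GABA receptors were followed across 6 groups of mouse cortex. They were chosen by name: the AMPA, NMDA, kainate, delta and metabotropic glutamate receptor genes, and the GABA-A alpha, beta, gamma, delta, epsilon and theta and the GABA-B receptor genes. That gave 43 of the 39017 genes in the deposited count table, 26 for glutamate and 17 for GABA, and the rule uses gene names alone. Total RNA of pulverised cortex was sequenced after removal of ribosomal RNA in 22 mice, with 23 libraries, because 1 wild-type mouse had 2 libraries whose counts were summed here. The mutants were heterozygous for a change in H3f3a, a gene of histone H3.3, at its glycine 34: G34R mice had arginine there, G34V mice valine and G34W mice tryptophan. Wild-type mice (WT) were H3f3a +/+. At 10 weeks there were 3 G34R males, 3 G34V males, 2 G34W animals (labelled 1 male and 1 female) and 6 WT males. The sample title of G34W replicate 2 begins with M, as those of males do, while its sex label is female. The label was used here, so the sex of this animal is uncertain. At postnatal day 7 there were 4 G34R and 4 WT pups, each with 2 males and 2 females. The series asks how a single change at this residue acts on the brain as it ages, and for the receptor genes the groups allow 2 questions: how the subunits differ between day 7 and 10 weeks, and whether a substitution alters them at either age.

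Glutamate and GABA are the main excitatory and inhibitory transmitters of the cortex. AMPA, NMDA and kainate receptors and GABA-A receptors are ion channels assembled from several subunits, and the choice of subunit sets how long the channel stays open, what passes through it and where on the neuron it sits. Metabotropic glutamate receptors and GABA-B receptors act through G proteins instead. In the rodent cortex the postnatal weeks are known for a change of subunits, in which NMDA receptors gain GluN2A and lose part of their GluN2B and GluN3A, and GABA-A receptors change their alpha subunits.

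The animals were separate mice with their own numbers in the labels, so the spread between replicates is that between animals. Total counts per library ran from 28414057 to 90067111, and the 43 genes took 0.482% to 0.687% of them. Structural RNA took 8.08% to 9.19% of the counts at day 7 and 13.75% to 26.9% at 10 weeks, with the highest share in G34W replicate 1. Day 7 and 10 weeks can also not be told apart from any batch in which the animals of one age were collected and sequenced. The codon itself is not visible in gene-level counts, which leaves the genotype labels unchecked here. The labelled tissue was checked by marker genes: all 9 markers of excitatory cortical neurons and all 12 of interneurons were read, but so were all 9 striatal, 8 hippocampal and 6 choroid plexus markers, and no marker gene was at 0 in all animals of a group. The summed level of the choroid plexus markers varied within a group, from 476 to 1703 CPM (the count scaled to a common library size) among the WT animals at 10 weeks.

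The sequences just upstream of 2 genes that the results below turn on are shown first: Grin2c, with the largest age difference, and Gabra2, which differed widely between animals of 1 genotype. Each line gives the 250 bases upstream of the RefSeq gene start (GRCm38.p6, minus strand for both), read 5′ to 3′, and capitals mark GC boxes (GGGCGG or its reverse complement) and CCAAT boxes (CCAAT or its reverse complement).
Grin2c, chr11:115267244-115267493: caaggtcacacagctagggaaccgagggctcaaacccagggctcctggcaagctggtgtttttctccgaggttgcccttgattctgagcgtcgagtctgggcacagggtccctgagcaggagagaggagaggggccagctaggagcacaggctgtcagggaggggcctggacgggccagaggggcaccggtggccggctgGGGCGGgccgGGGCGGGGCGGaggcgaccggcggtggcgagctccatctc
Gabra2, chr5:71095850-71096099: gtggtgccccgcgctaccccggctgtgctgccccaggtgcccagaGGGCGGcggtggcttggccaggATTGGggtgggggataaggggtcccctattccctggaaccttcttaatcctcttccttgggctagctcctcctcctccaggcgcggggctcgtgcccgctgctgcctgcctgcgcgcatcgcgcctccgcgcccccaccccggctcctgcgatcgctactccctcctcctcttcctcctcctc
The Grin2c window held 3 GC boxes, 2 of which share bases in the capitals nearest the start, and no CCAAT box. The Gabra2 window held 1 GC box and 1 CCAAT box. The GC content of the windows was 68.8% for Grin2c and 70.0% for Gabra2, and no base of them lies in an annotated exon. RefSeq windows were matched for 28 of the 43 members. A GC box on either strand was present in 16 of these 28 (57.1%), against 35.4% of all 27025 genes with a window, and a CCAAT box in 12 (42.9%) against 37.5%. Some genes have more than 1 window, and a gene was counted if any of them held the motif. The NRF-1 motif was present in 1 of the 28 (3.6%, against 4.2% of all genes with a window) and the cyclic AMP response element TGACGTCA in 0 (against 1.8%). A match of letters is a description of the window and no evidence that a factor binds there.

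The receptor genes fall into a wide range of levels, and the order differs with age. Levels are compared between genes per kilobase of exon (CPM per kb), and the subunit ratios given later are of counts without that correction. In WT cortex at 10 weeks the highest was Gabbr1, which encodes the ligand-binding GABA-B subunit, at 91.5 ± 3.7 CPM per kb (mean ± SD, n = 6). It was followed by the AMPA receptor gene Gria1 (68.6 ± 5.21). Other high genes were the metabotropic receptor gene Grm3 (52.3 ± 1.05), the AMPA receptor gene Gria2 (46.7 ± 1.51) and Gabbr2 (44.5 ± 3.58), of which the last pair differed by less than their spread. At 10 weeks Gabbr1 and Gria1 led in this order in G34R, G34V, G34W and WT cortex. In WT cortex at day 7 Grm3 was the highest (82.3 ± 9.88 CPM per kb, n = 4), before Gabbr1 (71.0 ± 2.98), and the same pair led in G34R at day 7. Gabbr2 (46.8 ± 4.88) and Gria1 (44.5 ± 5.08) differed by less than their spread there. Grm6, a retinal receptor gene, did not exceed 0.0577 CPM in any animal, Gabre, the epsilon subunit gene, did not exceed 0.382 CPM, and Gabra6, a cerebellar alpha subunit gene, did not exceed 0.647 CPM. These 3 were too low to describe further.

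The age comparison in WT asked how receptor genes at 10 weeks differ from those at day 7. Grin2c, Gabrd, Grin2a, Gabra4 and Gria3 were among the genes that were higher at 10 weeks, and Gabrq, Grin2d, Grin3a and Gabra5 among those that were lower. Of 41 members with enough counts to test, 36 passed edgeR's quasi-likelihood test at a Benjamini-Hochberg adjusted p under 0.05 over all genes, 23 higher and 13 lower. With only male animals, which leaves 2 WT pups, Gabra2, Gabra3, Gabrb1, Grin3b and Grm2 were among those that lost the call. Among all 22432 genes tested 67.7% passed, 33.3% higher and 34.4% lower, so most genes of the cortex differed between these ages and the share of receptor genes is read against that. The median log2 fold change of the members was 0.28 against -0.01 for all genes, and the median size of the change without sign was 0.62 against 0.55. At least a 2-fold change that passed the test was seen in 9 members, against 26% of all genes tested. In bulk tissue a lower value cannot be told apart as fewer cells of a type or less RNA per cell, and markers of several cell types moved with age. All 8 oligodendrocyte markers (median log2 fold change 4.67, summed level 4280 to 5593 CPM at 10 weeks and 191 to 247 at day 7) and 7 of 8 microglial markers were higher at 10 weeks. So were 8 of 12 interneuron markers, with 4 lower, and 9 of 9 striatal markers, while general neuronal markers were higher in 4 of 8 and lower in the other 4, and those of excitatory cortical neurons higher in 2 of 9 and lower in 6. Of 8 astrocyte markers 5 were higher and 2 lower, and of 6 markers of oligodendrocyte precursors 1 was higher and 5 lower. Hippocampal markers were higher in 6 of 8 cases and choroid plexus markers in 4 of 6, with 0 lower in both. The part of these shifts in the receptor results was not tested.

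**Figure D1:**
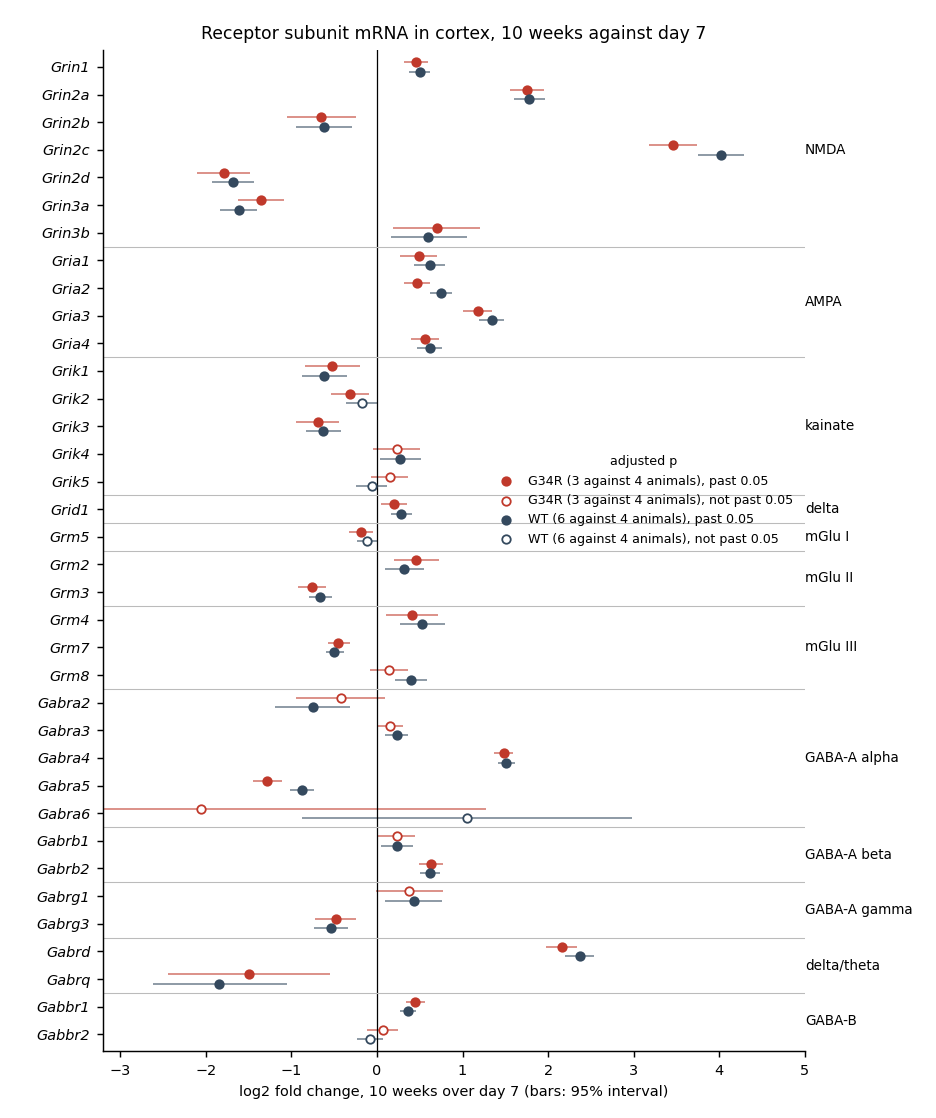
Log2 fold change at 10 weeks over day 7 for 36 of the 41 tested receptor genes, in G34R and in WT cortex, with 95% intervals; filled points passed an adjusted p of 0.05. Grin2c stands highest, at 3.46 in G34R and 4.02 in WT, and Gabrq, Grin2d and Grin3a are the lowest of the genes that passed in WT.

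NMDA receptors are tetramers of the obligatory GluN1 with GluN2 or GluN3 subunits. Grin2c (ENSMUSG00000020734, chr11:115249169-115267243, minus strand) encodes GluN2C, which is known from cerebellar granule cells and from astrocytes and some neurons of the forebrain. Its lowest, median and highest values in WT were 35.1, 36.8 and 42.3 CPM at 10 weeks, against 2.39, 1.81, 2.96 and 2.19 CPM in the 4 pups at day 7. Every 10-week animal was far above every pup. The log2 fold change was 4.02 (SE 0.131, edgeR adjusted p = 8.34e-18), the largest among the members.

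Grin2a encodes GluN2A, the subunit of fast adult NMDA receptors. It ran from 135 through a median of 143 to 157 CPM at 10 weeks, against 48.9, 41.6, 36.9 and 40.6 CPM at day 7, with no overlap (log2 fold change 1.78, SE 0.0857, edgeR adjusted p = 1.24e-14). Grin2b, for the slower juvenile form GluN2B, spread from 563 through 653 to 877 CPM at 10 weeks and was 1177, 1135, 905 and 1027 CPM at day 7. Its groups were close but did not overlap, and it was lower at 10 weeks (log2 fold change -0.62; SE 0.155; edgeR adjusted p = 0.00188). Grin2d, the gene of GluN2D, which early neurons and interneurons use, stood at 5.14, 6.73 and 7.04 CPM (lowest, median, highest) at 10 weeks, against 25.5, 19.9, 18.1 and 19.3 CPM at day 7. Its log2 fold change was -1.68, again without overlap (SE 0.118; edgeR adjusted p = 6.25e-12). The antisense gene Gm45441 covers 9.66% of the exon length of Grin2d, and the strand setting of the counting is not known here, so its counts are uncertain.

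Grin3a encodes GluN3A, which lowers calcium flow through juvenile receptors. Its values were 41.5, 45.5 and 50.8 CPM (lowest, median, highest) at 10 weeks, against 154, 142, 142 and 123 CPM at day 7, and the groups stood well apart (log2 fold change -1.61, SE 0.104, edgeR adjusted p = 1.57e-11). Grin1 itself, for GluN1, was moderately higher at 10 weeks, at 295 ± 18.2 CPM (n = 6) against 208 ± 16.9 CPM (n = 4), a log2 fold change of 0.50. Its exons overlap those of the antisense gene Grin1os over 13.5% of their length, and the strand setting of the counting is not known here, so its counts are uncertain. Grin3b, for GluN3B, was near 1 CPM at both ages (log2 fold change 0.60), and 32.1% of its exon length overlaps Tmem259, so its counts are uncertain.

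As shares of the summed GluN2 level per kb, GluN2B still led at 10 weeks. Grin2b made up 62.5% ± 3.32 of the sum at 10 weeks and 87.8% ± 0.893 at day 7 in WT. Grin2a made up 18.2% ± 1.72 against 4.82% ± 0.216, Grin2c 17.0% ± 1.46 against 0.977% ± 0.303, and Grin2d 2.21% ± 0.405 against 6.39% ± 0.524. The sum itself was 44.5 ± 5.36 CPM per kb at 10 weeks and 48.6 ± 5.49 at day 7, a difference smaller than the spread between animals, so the make-up of the GluN2 set differed more than its total.

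AMPA receptors carry the fast excitatory current, and all 4 of their genes were higher at 10 weeks. Gria3, for GluA3, had the largest difference, with 221, 226 and 232 CPM (lowest, median, highest) at 10 weeks against 94.9, 91.9, 89.6 and 80.4 CPM at day 7. Its log2 fold change was 1.34 (SE 0.0725, edgeR adjusted p = 4.61e-14). Gria2, for the subunit that makes the channel impermeable to calcium, averaged 727 ± 23.4 CPM at 10 weeks and 430 ± 39.3 CPM at day 7 (log2 fold change 0.75). Gria1 and Gria4 each had a log2 fold change of 0.62. Summed per kb, AMPA receptor genes reached 155 ± 5.73 CPM per kb at 10 weeks and 92.2 ± 4.93 at day 7, and the share of Gria3 in that sum was 14.8% ± 0.602 against 9.82% ± 0.642.

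**Figure D2:**
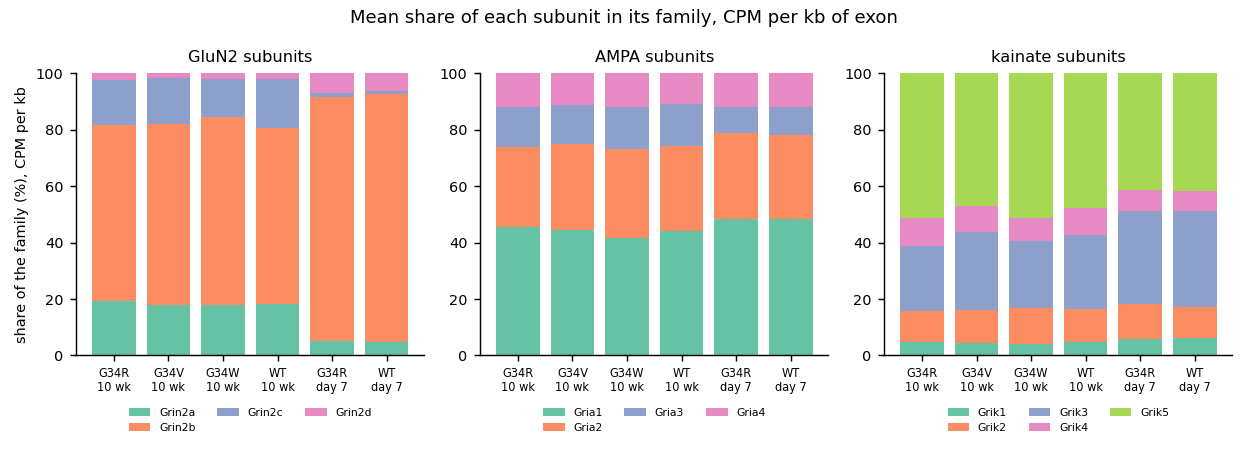
Share of each subunit in the summed level of its family, in percent of CPM per kb, for 3 families (GluN2, AMPA and kainate) and the 6 groups; each bar is the mean over the animals of a group. Grin2b takes 62.5% of the GluN2 level in WT at 10 weeks and 87.8% at day 7, and Gria3 14.8% and 9.82% of the AMPA level.

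Kainate receptor genes went both ways. Kainate receptors tune transmission before and after the synapse. Grik3 (GluK3; log2 fold change -0.63, SE 0.0994) and Grik1 (GluK1; -0.62, SE 0.127) were lower at 10 weeks, and Grik4 (GluK4; 0.27, SE 0.113) was higher, with edgeR adjusted p of 1.1e-05, 0.000184 and 0.0377. Grik2 (GluK2; -0.18) and Grik5 (GluK5; -0.06) did not pass (edgeR adjusted p = 0.0896 and 0.539). Of the delta receptor genes, whose proteins bind cerebellins across the synapse, Grid1 was higher (0.28, SE 0.0609).

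Metabotropic glutamate receptors were likewise split. Grm3, for the group II receptor mGlu3 of neurons and astrocytes, was at 156, 158 and 164 CPM (lowest, median, highest) at 10 weeks and at 269, 272, 207 and 256 CPM at day 7. All 6 values at 10 weeks lay below all 4 at day 7 (log2 fold change -0.66, SE 0.0626, edgeR adjusted p = 1.58e-09). Grm7, a presynaptic group III receptor gene, was lower too (-0.50, SE 0.0506), while the group III genes Grm4 (0.53, SE 0.125) and Grm8 (0.40, SE 0.0915) and the group II gene Grm2 (0.32, SE 0.109) were higher. The antisense gene Gm28111 covers 9.6% of the exon length of Grm2, so the counts of Grm2 are uncertain. Grm5, the more abundant group I gene in forebrain, averaged 335 ± 10.3 CPM at 10 weeks and 361 ± 14.5 CPM at day 7 and did not pass (-0.11, 95% interval -0.23 to 0.00, edgeR adjusted p = 0.0737).

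GABA-A receptors are pentamers, most often of alpha, beta and gamma subunits, and their alpha genes went both ways. Gabra4, for an alpha subunit found with delta outside synapses, was at 147, 152 and 157 CPM (lowest, median, highest) at 10 weeks, against 54.3, 56.7, 53.0 and 48.9 CPM at day 7 (log2 fold change 1.51, SE 0.0479, edgeR adjusted p = 2.30e-18). The ages lay far apart.

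Gabra5 (ENSMUSG00000055078, chr7:57407672-57510059) encodes the alpha5 subunit of mostly extrasynaptic receptors and was lower at 10 weeks, with 58.4, 65.4 and 74.1 CPM (lowest, median, highest) against 125, 109, 133 and 117 CPM at day 7. Its log2 fold change was -0.88 (SE 0.0655, edgeR adjusted p = 1.91e-11), with no overlap. An antisense gene, Gm9962, covers 4.98% of its exon length, so all values of Gabra5 given here may hold some reads of that gene. Gabra2 (ENSMUSG00000000560, chr5:70957597-71095849), for the alpha2 subunit of axon-initial-segment synapses, was also lower (-0.75, SE 0.207, edgeR adjusted p = 0.00401). It did overlap, however: 5 of the 6 WT animals at 10 weeks lay between 23.3 and 28.5 CPM and replicate 3 at 53.2 CPM, against 50.7, 43.4, 61.1 and 49.3 CPM at day 7. Without replicate 3 the log2 fold change was -0.99, and with only male animals it was -0.63 and did not pass (edgeR adjusted p = 0.0917). Gabra3, for alpha3, was slightly higher at 10 weeks (0.23, SE 0.0635, edgeR adjusted p = 0.003).

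Gabrd, for the delta subunit that serves tonic inhibition, was at 65.9, 72.0 and 74.2 CPM (lowest, median, highest) at 10 weeks against 13.4, 14.7, 14.3 and 12.7 CPM at day 7, without overlap (log2 fold change 2.37; SE 0.0826; edgeR adjusted p = 1.20e-17). Among the gamma genes Gabrg3 was lower (-0.54, SE 0.0956) and Gabrg1 higher (0.43, SE 0.159).

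Among the beta genes Gabrb2, for the adult beta2, averaged 221 ± 15.3 CPM at 10 weeks and 143 ± 9.09 CPM at day 7 (0.62, SE 0.0585). Gabrb1 was slightly higher (0.23, SE 0.0888). Gabrq, the theta subunit gene, was low at both ages, at 0.78 ± 0.224 against 2.71 ± 1.05 CPM (-1.84, SE 0.377, edgeR adjusted p = 0.000218). Of the GABA-B genes Gabbr1 was higher at 10 weeks (0.36, SE 0.0453), and its obligatory partner Gabbr2 did not pass (-0.08, 95% interval -0.23 to 0.07, edgeR adjusted p = 0.354).

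**Figure D3:**
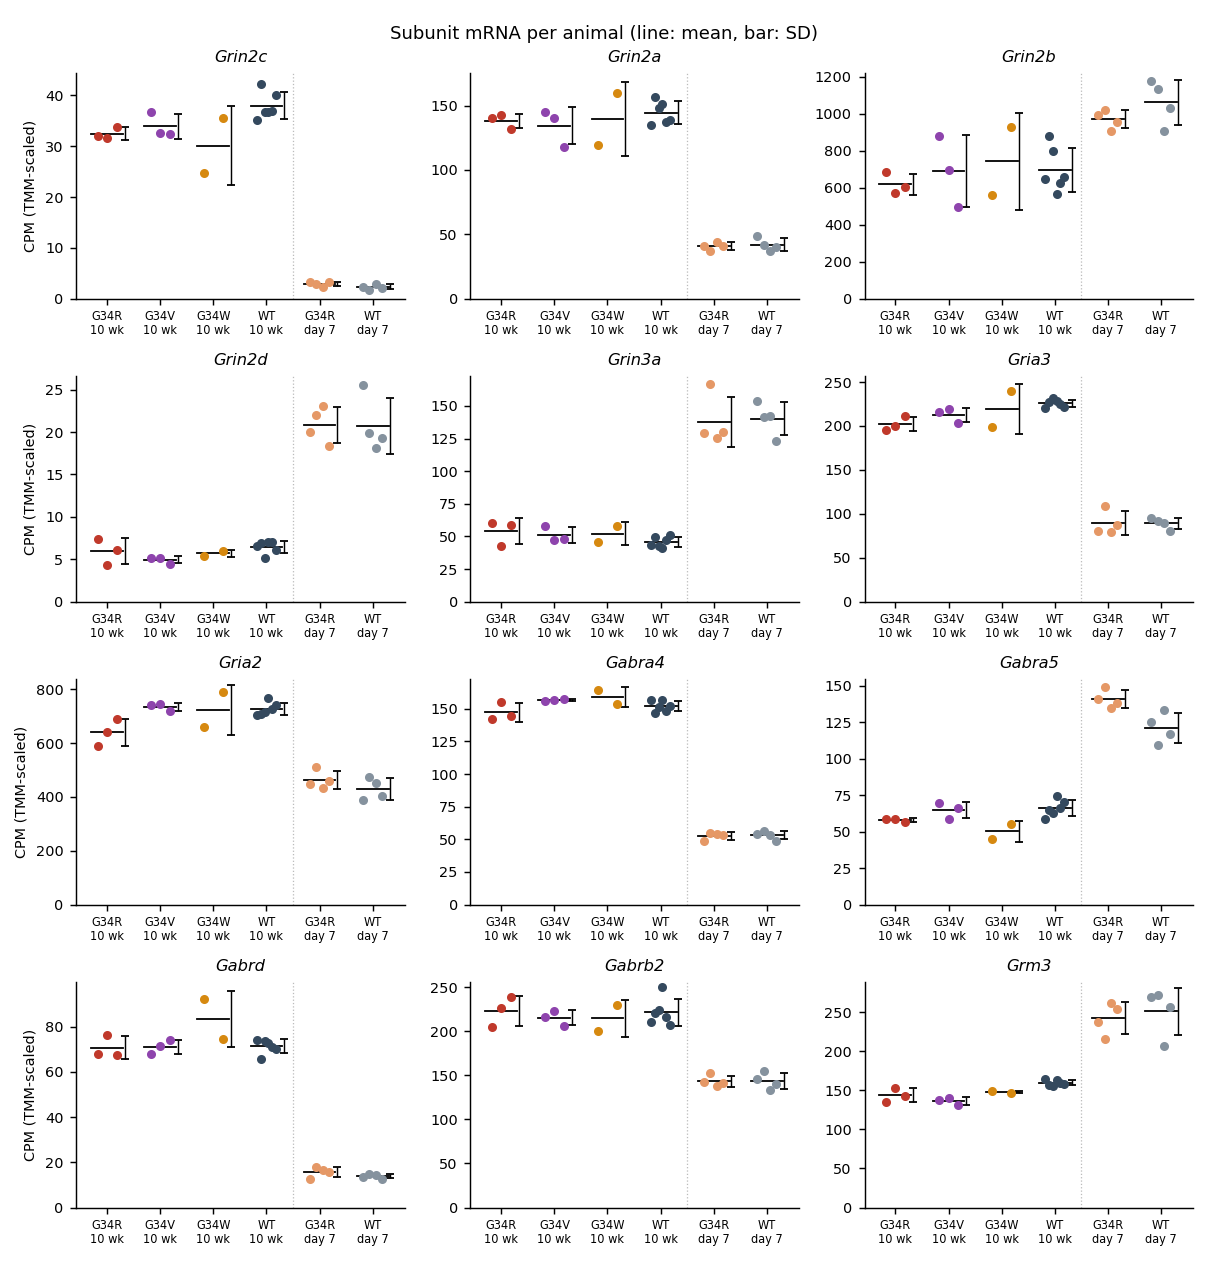
CPM in each animal for 12 receptor genes in the 6 groups; points are animals, the line is the mean and the bar the SD. Grin2c, Gabra4 and Gabrd are higher in every animal at 10 weeks than in any at day 7, and Grin2d, Grin3a and Gabra5 are lower.

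Subunit ratios within an animal do not depend on the scaling of the library. They are ratios of counts, not corrected for exon length, so they compare groups and not the levels of the paired genes. Of 13 chosen pairs, 11 differed between 10 weeks and day 7 in WT with no overlap, each at the smallest p that an exact 2-sided permutation test of 6 against 4 animals can give (0.00952, adjusted over the 13 pairs 0.0113). The pairs were chosen with earlier results of these data known. The share of other gene pairs without overlap was not taken, here or in the genotype comparisons. In WT 67.7% of all genes passed with age, so the count is not read as particular to these pairs. Grin2a over Grin2b was 0.179 to 0.268 at 10 weeks and 0.0366 to 0.0416 at day 7. Gabra4 over Gabra5 was 2.11 to 2.68 against 0.398 to 0.519, and Grin3a over Grin1 0.139 to 0.186 against 0.637 to 0.708. Gria2 over Gria1 (exact permutation p = 0.286) and the chloride transporter pair Slc12a5 over Slc12a2, the exporter KCC2 against the importer NKCC1 (p = 0.448), overlapped between the ages. With only male animals the day-7 group holds 2, and none of the 13 pairs can then pass.

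GABA-A genes lie in clusters, and neighbours did not always move together. In the cluster on chromosome 5 (chr5:70751047-72149037) Gabra4 had a log2 fold change of 1.51, Gabrg1 0.43 and Gabrb1 0.23, and Gabra2 -0.75. On chromosome X (chrX:72255999-72842602) Gabra3 was higher and Gabrq lower. Of these, Gabra4 and Gabrq passed in WT under every alternative that was run. Gabra2, Gabrg1, Gabrb1 and Gabra3 each lost the call under at least 1. The Gabra2 value also depends on which 10-week animals were low, as given below. Gabra4 and Gabrb1 share 46 exon bases on opposite strands, where reads of the pair may be mixed.

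Proteins that work with the receptors were followed through 73 further genes in 9 lists. Of 13 genes for synthesis, loading and uptake of the transmitters, 10 were higher at 10 weeks in WT and 3 lower. Among the higher were Glul, for glutamine synthetase (1.80), Slc1a2, for the main glutamate transporter of astrocytes (1.44), and Slc17a7, for the vesicular glutamate transporter VGLUT1 (1.4). Both chloride transporter genes were higher, Slc12a5 by 1.13 and Slc12a2 by 1.07. Of 17 genes of the excitatory scaffold 8 were higher, such as Dlg1 (1.80), Dlgap1 (1.87) and Camk2a (1.77), and 6 lower. Of 13 AMPA receptor auxiliary genes 6 were higher and 4 lower, and both kainate receptor auxiliary genes were lower (Neto2 -1.28, Neto1 -0.47). Of 9 genes of the inhibitory scaffold 2 were higher, among them Iqsec3 (1.12), and 5 lower, among them Igsf9b (-1.38). Of 4 delta receptor ligand genes, Cbln2 was higher (0.69) and Cbln1 lower (-1.61), and of 4 GABA-B auxiliary genes 1 was higher and 2 lower. Of 7 tested genes of other GABA and glycine receptors 3 were higher, among them Glrb (0.99), and 2 lower, among them Glra2 (-1.53). Log2 fold changes in this paragraph are from edgeR and passed the adjusted p of 0.05. Of all genes tested 33.3% were higher and 34.4% lower, so the list counts are not read as particular to these lists.

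The same age comparison was made in G34R, with 3 animals at 10 weeks and 4 at day 7. There 32 of 41 members passed, 18 higher and 14 lower, against 63.8% of all genes. Higher were 31.5% of all genes and lower 32.3%. The same animals enter the genotype comparisons below. Grin2c stood at 32.1, 31.5 and 33.8 CPM at 10 weeks in G34R against 3.23, 2.87, 2.29 and 3.34 CPM at day 7 (log2 fold change 3.46 in G34R, 4.02 in WT). Gabrd had 2.16 in G34R and 2.37 in WT, Grin2a 1.75 and 1.78, Grin2d -1.79 and -1.68, and Grin3a -1.35 and -1.61. Of all 41 members 38 had the same direction in both genotypes, and 30 passed in both. The shares of all genes were not taken for these counts. In WT 67.7% and in G34R 63.8% of all genes passed, so the counts are not read as particular to receptor genes. Gabra5 fell to 58.3, 58.9 and 56.8 CPM at 10 weeks in G34R, against 141, 149, 134 and 138 CPM at day 7, a log2 fold change of -1.28 in G34R against -0.88 in WT.

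Whether the age difference itself differed between G34R and WT was tested by the interaction term over the 22 animals. None of the 41 members passed edgeR's test, against 1.16% of all genes (0.562% higher and 0.597% lower), with 3 members at an unadjusted p under 0.05, and DESeq2 and limma-voom each called 1. The 3 were Gabra5 (difference of log2 fold changes -0.40, 95% interval -0.62 to -0.19, edgeR adjusted p = 0.057), Grin2c (-0.56, interval -0.93 to -0.18, adjusted p = 0.179) and Gria2 (-0.29, interval -0.48 to -0.09, adjusted p = 0.194). Gabra5 passed with DESeq2 (adjusted p = 0.018) and limma-voom (0.0279), and with edgeR when WT replicate 1 at 10 weeks (0.0322) or WT replicate 3 at day 7 (0.0342) was left out. Grin2c passed with only male animals (-0.78, edgeR adjusted p = 0.0303). For 34 of 41 members the 95% interval of the difference lay within 1.5-fold either way.

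The genotype comparisons asked whether a substitution alters receptor genes against WT of the same age. The differences were small beside those of age, and few passed. The 3 comparisons at 10 weeks share the same 6 WT animals, so their values stand side by side. In each of G34R, G34V and G34W at 10 weeks, and in G34R at day 7, the 95% intervals of 36 of 40 tested members lay within 1.5-fold either way. The median size of the change without sign was 0.09 for the members against 0.13 for all genes in G34R, 0.06 against 0.12 in G34V, 0.09 against 0.16 in G34W, and 0.07 against 0.08 in G34R at day 7.

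**Figure D4:**
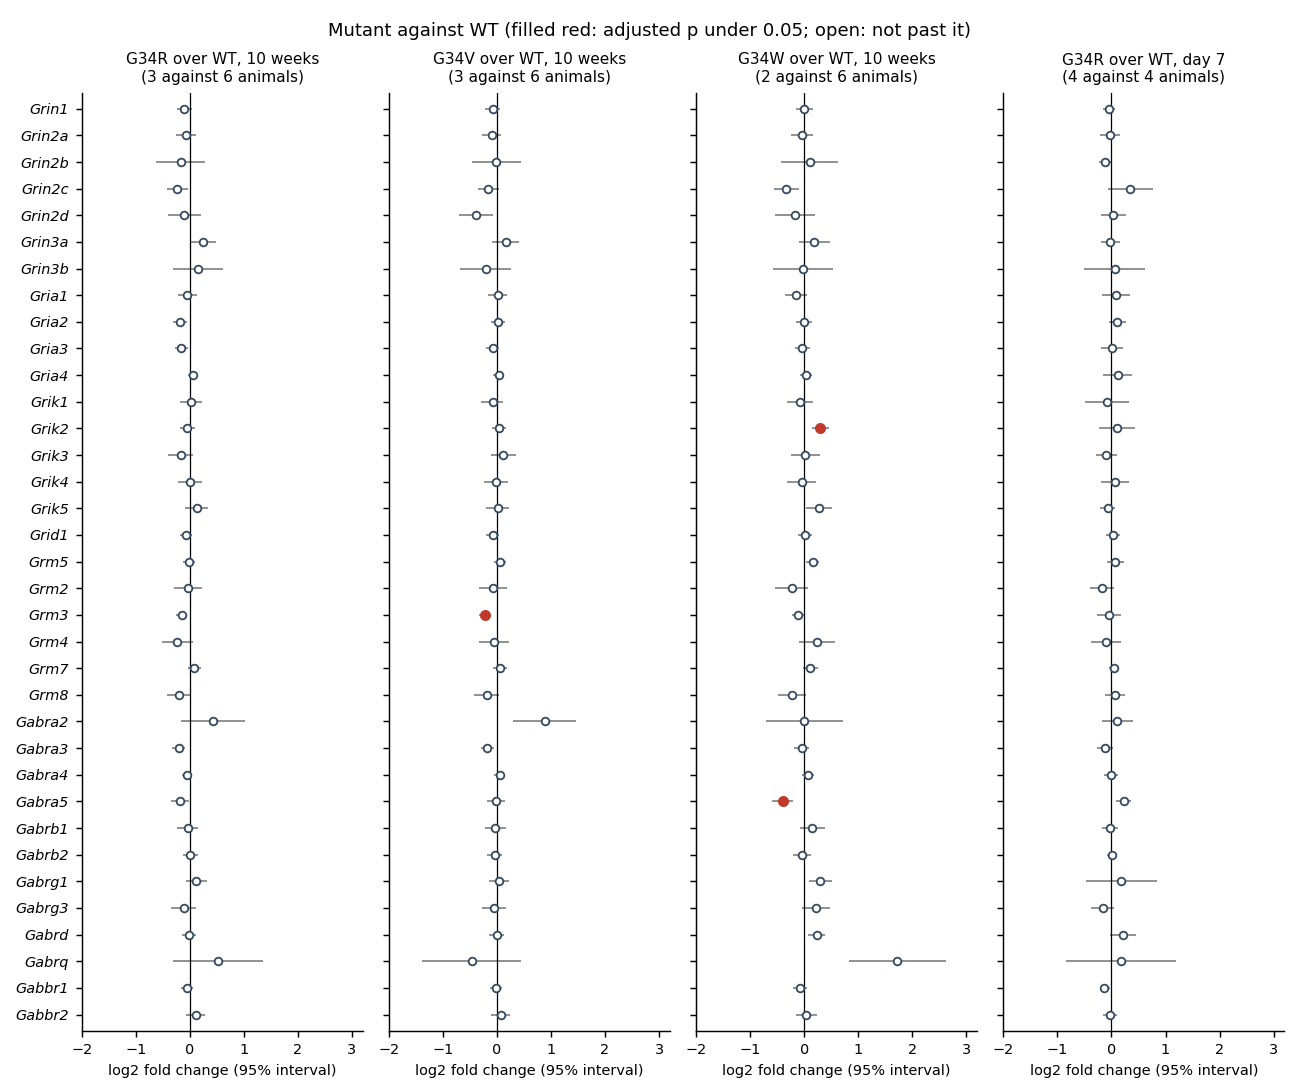
Log2 fold change of 35 of the 40 tested receptor genes in 4 comparisons with WT (G34R, G34V and G34W at 10 weeks, G34R at day 7), with 95% intervals; filled points passed an adjusted p of 0.05. Filled are Grm3 in G34V, and Gabra5 and Grik2 in G34W, and most intervals include 0.

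In G34R at 10 weeks 0 of 40 members passed edgeR's quasi-likelihood test, against 5.55% of all genes (2.92% higher and 2.63% lower). At an unadjusted p under 0.05 there were 6, and DESeq2 called 2 and limma-voom 1. All 6 were lower in G34R: Gabra3, Grm3, Gria2, Gria3, Grin2c and Gabra5, with log2 fold changes from -0.23 to -0.15. The share of all genes under that unadjusted limit was not taken, so such counts, here and in the other comparisons, have no background. The shared direction of the 6 was not tested. Gabra3 was at 94.1, 84.9 and 98.3 CPM in G34R, against 99.5, 106 and 114 CPM (lowest, median, highest) in WT, which do not overlap (-0.20, SE 0.0587, edgeR adjusted p = 0.0552). Gria2 was at 590, 640 and 691 CPM in G34R against 704, 721 and 766 CPM in WT (-0.18, SE 0.0622, edgeR adjusted p = 0.105), again without overlap. Gria4 over Gria2 was 0.166 to 0.179 in G34R against 0.139 to 0.150 in WT, the only 1 of 13 ratios without overlap (exact 2-sided permutation p = 0.0238, the smallest possible, adjusted 0.31).

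Cell markers differed in the same animals. Microglial markers were higher in G34R in 7 of 8 cases (summed level 599 to 688 CPM in G34R and 355 to 397 in WT), while 0 of 8 neuronal markers passed (5748 to 5846 CPM in G34R and 5977 to 6843 in WT). Markers of excitatory cortical neurons were lower in 2 of 9 cases and those of interneurons in 2 of 12. Their part in the receptor values was not tested. Of those of the 73 partner genes that could be tested 1 passed, against 5.55% of all genes. It was Cbln4, a cerebellin gene (-0.46, SE 0.131, edgeR adjusted p = 0.0475). Gabra3 passed when WT replicate 2 was left out (edgeR adjusted p = 0.0457), with DESeq2 (0.0261) and with limma-voom (0.0237), and 1 member also passed when WT replicate 3 or G34R replicate 2 was left out.

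In G34V at 10 weeks 1 of 40 members passed, against 4.24% of all genes (1.57% higher and 2.67% lower), and 5 had an unadjusted p under 0.05. It was Grm3 (ENSMUSG00000003974, chr5:9485541-9725170), at 138, 141 and 131 CPM in G34V against 156, 158 and 164 CPM (lowest, median, highest) in WT. All 3 G34V animals lay below all 6 WT animals (log2 fold change -0.22, SE 0.0497, edgeR adjusted p = 0.0136). Grm3 was at 135, 153 and 143 CPM in G34R (-0.15, edgeR adjusted p = 0.0873) and at 149 and 147 CPM in G34W, also below the WT range. The call in G34V was lost without G34V replicate 1 (edgeR adjusted p = 0.0595) or replicate 3 (0.0869) and when stretches of adjoining animal numbers formed a block (0.111).

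Microglial markers were higher in 5 of 8 cases in G34V (430 to 555 CPM against 355 to 397 in WT) and oligodendrocyte markers lower in 4 of 8 (2668 to 3484 against 4280 to 5593 CPM). Of 8 astrocyte markers, the cell type that also carries mGlu3, 1 was higher. Whether these bear on Grm3 was not tested. Among the partner genes Slc17a6, for the vesicular glutamate transporter VGLUT2 of thalamic and other subcortical neurons, was lower (-0.51, SE 0.115, edgeR adjusted p = 0.0166), and 1 of 8 thalamic markers was lower too. Of all genes 4.24% passed in this comparison.

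Gabra2 differed widely within G34R and within WT at 10 weeks, and little within G34V or G34W. Its values were 52.3, 43.1 and 27.4 CPM in G34R, 59.3, 54.2 and 54.2 CPM in G34V, 29.6 and 31.2 CPM in G34W, and 23.3, 26.7, 53.2, 26.4, 24.3 and 28.5 CPM in WT replicates 1 to 6. The animals thus stood either below 32 CPM or above 43 CPM, with G34R and WT animals on both sides. The high WT animal, replicate 3, was the one with 2 libraries, and both were high (50.8 and 50.1 CPM before scaling). At day 7 the values were 50.2 to 63.8 CPM in G34R and 43.4 to 61.1 CPM in WT. The log2 fold change in G34V was 0.88 (SE 0.264, edgeR adjusted p = 0.11), and without WT replicate 3 it was 1.11 (adjusted p = 0.00109). With DESeq2 on all animals Gabra2 passed in G34V (adjusted p = 0.0288). The reason was not tested.

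**Figure D5:**
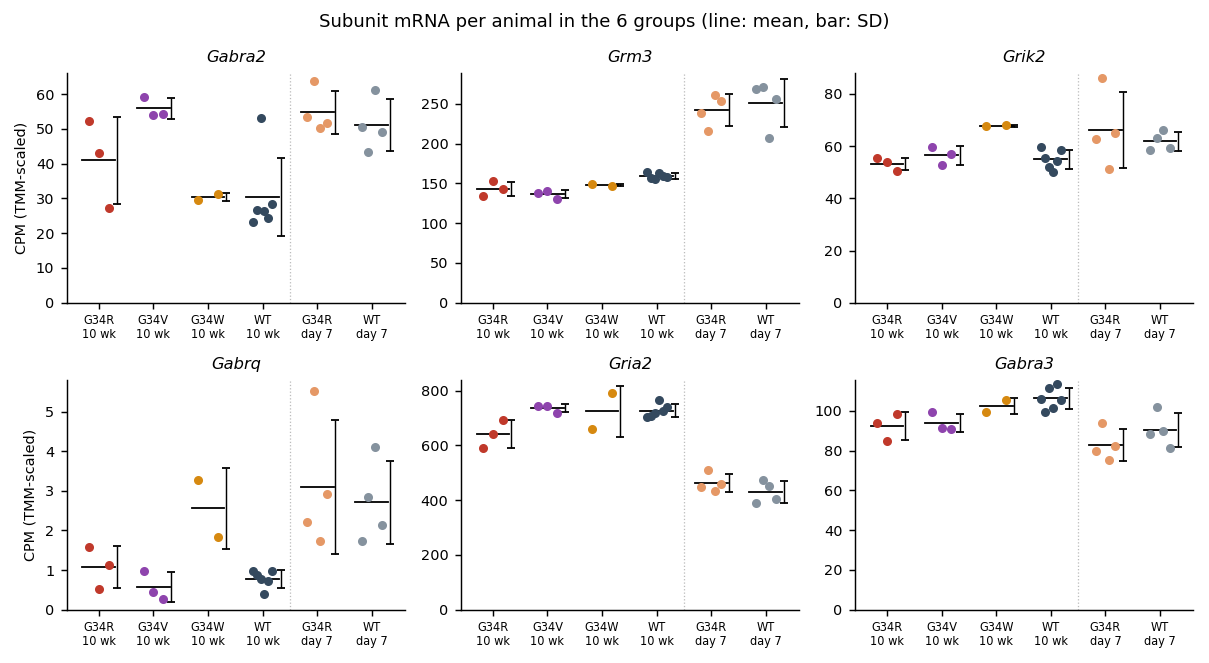
CPM in each animal for Gabra2, Grm3, Grik2, Gabrq, Gria2 and Gabra3 in the 6 groups; points are animals, the line is the mean and the bar the SD. For Gabra2 the 10-week G34R and WT animals split into low and high values, and for Grm3 all 3 G34V animals lie below the 6 WT animals.

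In G34W at 10 weeks, with 2 animals of different sex label, 2 of 40 members passed, 1 higher and 1 lower, against 1.63% of all genes (0.568% higher and 1.07% lower). Gabra5 was at 45.1 and 55.1 CPM in G34W, against 58.4, 65.4 and 74.1 CPM (lowest, median, highest) in WT (log2 fold change -0.39, SE 0.0917, edgeR adjusted p = 0.0393). Grik2 (ENSMUSG00000056073, chr10:49094833-49788766), for the kainate subunit GluK2, was at 67.5 and 68.0 CPM against 50.2, 54.8 and 59.6 CPM (0.30, SE 0.0714, edgeR adjusted p = 0.04). Neither gene overlapped between the groups. Gabrq was at 3.28 and 1.84 CPM in G34W against 0.381 to 0.981 CPM in WT, and did not pass (1.72, edgeR adjusted p = 0.0534). At an unadjusted p under 0.05 there were 9 members.

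Both G34W calls were lost with adjoining animal numbers as a block (edgeR adjusted p = 0.123 for Gabra5 and 0.199 for Grik2), with library sets by mitochondrial share as a block (0.0856 and 0.113) and with only the groups compared (0.105 and 0.099). Limma-voom did not call them either (adjusted p = 0.204 and 0.221), and DESeq2 did (0.00475 and 0.00573). They also depend on single animals, and replicate 1 had the highest share of structural RNA of all libraries. Without replicate 1 Gabra5 was at -0.27 (edgeR adjusted p = 0.313) and Grik2 at 0.30 (0.155). Without replicate 2 Gabra5 still passed (-0.55, adjusted p = 0.0167), Grik2 did not (0.0963), and Grin2c (-0.62), Gabrd (0.37), Gabrg1 (0.51) and Gabrq (2.09) passed as well, the lone G34W animal being assumed to vary like the other groups. Without a single WT animal Gabra5 lost its call in the absence of replicate 5 (0.058) or 6 (0.0531), and Grik2 in that of replicate 3 (0.0759), 4 (0.0556) or 5 (0.0667). Of those of the 73 partner genes that could be tested 3 passed, against 1.63% of all genes. Dlg2, for the scaffold PSD-93 (0.37, SE 0.0672, edgeR adjusted p = 0.0121), was higher, and Cbln2 (-0.57, adjusted p = 0.0367) and Homer3 (-0.47, 0.0468) were lower. Of the marker lists, 0 of 8 microglial, 1 of 8 oligodendrocyte (lower), 2 of 12 interneuron (lower), 1 of 8 astrocyte (higher) and 1 of 8 thalamic markers (lower) passed. Of 9 markers of excitatory cortical neurons 1 was higher and 1 lower. Among hippocampal, choroid plexus and striatal markers 0 passed, with median log2 fold changes of -0.65, -1.14 and 0.32. Their part in the receptor values was not tested.

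Between substitutions, Grik2 was the 1 of 40 members that passed, lower in G34R than in G34W (-0.35, SE 0.0806, edgeR adjusted p = 0.0337), against 1.87% of all genes (0.939% higher and 0.935% lower). DESeq2 was the only alternative run between substitutions. This Grik2 call rests on the same G34W animals as its call against WT, which several alternatives ended. Between G34R and G34V 0 of 40 passed edgeR's test (0.23% of all genes, 0.174% higher and 0.0564% lower, 2 members at an unadjusted p under 0.05, 0 with DESeq2), and between G34V and G34W 0 (0.15% of all genes, 0.0376% higher and 0.113% lower, 6 at an unadjusted p under 0.05, 1 with DESeq2). Gabrq had the largest of these differences, -2.19 for G34V minus G34W (95% interval -3.28 to -1.09, edgeR adjusted p = 0.101), at levels of a few CPM.

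In G34R at day 7 0 of 40 members passed edgeR's test with sex as a covariate, against 0.308% of all genes (0.112% higher and 0.195% lower). At an unadjusted p under 0.05 there were 3, and DESeq2 and limma-voom called 0. Gabra5 was at 141, 149, 134 and 138 CPM in G34R against 125, 109, 133 and 117 CPM in WT, and every G34R pup was above every WT pup by a small margin (0.23, SE 0.0641, edgeR adjusted p = 0.297). Gabbr1 (-0.13) and Grin2b (-0.12) were the others. Microglial markers were higher in 2 of 8 cases (195 to 227 against 159 to 185 CPM), and their part was not tested.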

How the data were processed

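Cortex RNA of 22 mice was measured, and the deposited file holds whole-number counts per gene. Tools named in the submitters' processing notes are featureCounts 1.4.4, STAR 2.3.0e, Trimmomatic 0.32 and bedtools 2.27.1, and the build is mm10. How the authors set strand and which annotation release they counted on is not given in the sources used. Coordinates, exon lengths and overlaps were taken from GENCODE M21, in which 37693 of 39017 gene identifiers were found. Upstream sequences are from the RefSeq table of GRCm38.p6.

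Counts were tested with edgeR 4.0.16 (quasi-likelihood, robust) in R 4.3.3. Low genes were removed by filterByExpr, libraries scaled by TMM and p-values adjusted by Benjamini-Hochberg over all genes, with a threshold of 0.05. A fit of all 22 animals, without sex as a covariate, gave the age comparisons and their difference (22432 genes, 16 residual degrees of freedom). One of the 14 animals at 10 weeks gave the comparisons with WT and between substitutions (21288 genes, 10), and one of the 8 pups with sex as a covariate gave day 7 (20461 genes, 5). CPM are on 1 TMM scale over 22 animals, and CPM per kb divide by merged exon length. Log2 ratios of 13 pairs of subunits were compared by exact permutation over animals. The tests were checked on simulated counts. Alternatives were DESeq2 1.42.0, limma-voom 3.58.1 with quality weights, RLE scaling, no filter, and subsets, covariates and blocks named in the closing section.

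Some members and partner genes are counted in the totals but not reported here, nor shown in the plots. Values per animal follow the smallest adjusted p, and up to 3 partner genes are named per list, ranked by adjusted p. The members, the gene lists, the ratios and the tests were chosen with earlier results of these data known. Gabra2, Gabrq and Gria2 in the genotype comparisons, and the libraries discussed with them, were described after their values were seen.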

Additional observations from a re-analysis of the deposited data

Results flagged for a closer look

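Of 138 sets of 4 to 6 animals checked (a member's CPM or a ratio in 1 group), 12 held an animal whose gap to the rest passed Dixon's 95% limit, where chance gives about 1 in 20. In WT at 10 weeks Gabra2 was 53.2 CPM in replicate 3 (the others 23.3 to 28.5) and Gabra6 0.647 CPM in replicate 2 (0 to 0.147). Gabrg3 was 25.8 CPM in replicate 6 (32.3 to 33.8), Grm5 355 CPM in replicate 6 (328 to 336) and Grm6 0.0577 CPM in replicate 6 (all others at 0). The ratio Gria4 over Gria2 was 0.139 in replicate 6 (0.146 to 0.150).

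At day 7 in G34R, 4 of the values belonged to replicate 2: Grik5 at 96.7 CPM (the others 83.5 to 84.6), Grin1 at 210 CPM (197 in each of the others), Grin3a at 167 CPM (125 to 130) and Grin3a over Grin1 at 0.794 (0.637 to 0.661). In WT at day 7 Grik4 was 12.4 CPM in replicate 2 (18.3 to 19.4) and Grik5 107 CPM in replicate 1 (85.3 to 88.8).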

How the results depend on the processing

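No member that passed changed direction under an alternative that was run, and no ratio result was reversed. Members that did not pass were not all followed in this way. The age calls were the most stable: 32 to 37 members passed in WT and 29 to 35 in G34R, 29 of the 36 and 27 of the 32 under every alternative, and leaving out 1 animal gave 33 to 36 and 29 to 33. Among those that did not hold were Gabrg1, Gabra2, Gabrb1, Grik4, Grm2, Gabra3 and Grin3b in WT and Grm5, Grik2, Grin3b, Grid1 and Grm4 in G34R. The subunit ratios that passed with age in WT numbered 11, and 0 with only male animals, where the design is too small. The difference of the age effect had 0 members, and 1 each with DESeq2, limma-voom, only the groups compared and only male animals, and 0 to 1 leaving out 1 animal.

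Against WT at 10 weeks the G34R count of 0 was 2 with DESeq2, 1 with limma-voom, 1 with the libraries of WT replicate 3 apart, 3 with the sex label as a covariate, 1 with library sets split by mitochondrial share as a block (chosen after seeing the data), and 0 to 1 leaving out 1 animal. The G34V count of 1 was 2 with DESeq2 and with limma-voom, and 0 to 2 leaving out 1 animal. The G34W count of 2 was 0 with limma-voom, 1 with only the groups compared, 5 with the sex label, 1 with adjoining animal numbers as a block, 0 with the mitochondrial block, and 0 to 5 leaving out 1 animal. These counts need not hold the same genes: Gabra5 and Grik2 were both lost with only the groups compared, where Gabrq passed (adjusted p = 0.0428), and with the number block, and Grik2 was lost with the sex label (0.0951). G34W replicate 2 is the only animal labelled female at 10 weeks, so the sex label as a covariate fits that animal exactly. The G34W values with the sex label therefore rest on replicate 1 alone, as when replicate 2 is left out. They are no separate check, and no conclusion on sex is drawn from them. Between G34V and G34W DESeq2 called 1 member instead of 0. The causes were not tested. Each animal has a number of its own, so no shared number pairs the animals. The block on adjoining numbers, which the labels do not call litters, ended the calls of Grm3 in G34V (adjusted p = 0.111) and of Gabra5 (0.123) and Grik2 (0.199) in G34W. Scaling moved the median of all genes by less than 0.1 on the log2 scale. With 2 to 6 animals a group, a difference under 1.5-fold can be missed.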
